A study of Homo sapiens with 6 samples.

Results

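The respiratory chain complexes II, III and IV and the ATP synthase (complex V) were examined at the mRNA level after silencing of Mic60. The members were the protein-coding genes with symbols that start with SDHA, SDHB, SDHC, SDHD, UQCR, UQCC, ATP5, or COX or COA followed by a number, together with CYC1, CYCS, SCO1, SCO2, SURF1, BCS1L and TTC19. The rule uses symbols and no expression value, although it was set with earlier results of these data known, and 83 of the 57736 rows in the table met it. They comprise 8 genes of complex II, 18 of complex III, 36 of complex IV, 19 of complex V, the cytochrome c gene CYCS and the read-through gene ATP5MF-PTCD1. A further 138 rows with matching symbols were not protein coding, 134 of them pseudogenes, and were left out.

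Poly(A) RNA was sequenced from PC3 cells, a human prostate cancer line established from a bone metastasis, with QuantSeq 3′ mRNA libraries. The groups were siMic60 (n = 3), with Mic60 silenced, and siCTRL (n = 3), the control. One label field names siRNAs and another calls the same groups Mic60 KO and Mic60 WT. All 6 libraries came from a single line, and the siRNA sequences, dose and time of harvest are not given in the labels. The study describes its data in general as coming from independent biological replicates, while the labels do not say how the replicates of these libraries were made, so p-values measure the spread between these samples.

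Complex II oxidizes succinate and hands the electrons to ubiquinone, complex III passes them on to cytochrome c, and complex IV uses them to reduce oxygen to water. Complexes III and IV pump protons across the inner mitochondrial membrane, and complex V lets the protons flow back through a ring of c subunits to make ATP. These complexes sit in the cristae, the folds of the inner membrane, and Mic60, the product of IMMT, is a core subunit of the MICOS complex that holds the cristae junctions. Complex II is encoded entirely in the nucleus, whereas complexes III to V join nuclear subunits to a core encoded in mitochondrial DNA, and dedicated assembly factors insert heme, copper, flavin and iron-sulfur cofactors.

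IMMT mRNA stood at 5.83, 7.34 and 8.53 CPM in the siMic60 libraries, against 88.9, 91.2 and 90.4 CPM in the siCTRL libraries (CPM, counts scaled to a common library size after TMM normalization). The groups did not overlap, and the siMic60 mean was 8.02% of the siCTRL mean (log2 fold change −3.62, standard error 0.15, edgeR adjusted p = 4.29e-10). The libraries held 6644495 to 8779877 counts in siMic60 and 7714837 to 8396244 counts in siCTRL. No replicates were near-identical: the chi-square statistic per degree of freedom was 3.54 to 13.5 within groups and 45.2 to 69.0 between them. The PC3 markers KRT8, KRT18, VIM and EPCAM summed to 1170 to 1400 CPM in siMic60 libraries and 984 to 1134 CPM in siCTRL libraries, and KLK3, CD3E, DCN and CDH5 were at 0 in all 6. The fibroblast list (DCN, COL1A1 and LUM) summed to 46.3 to 65.5 CPM in siMic60 and 277 to 370 CPM in siCTRL, nearly all of it COL1A1. Their part in the results was not tested.

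Of the 83 genes, 77 had at least 10 counts in 3 or more libraries and were tested. After Mic60 silencing, 13 rose and 13 fell at an adjusted p under 0.05 by edgeR's quasi-likelihood test with Benjamini-Hochberg adjustment over all 14653 genes tested. That is 33.8% of the tested members, with 16.9% in each direction, against a background of 35.5% of all genes tested, of which 17.7% rose and 17.9% fell. The share of calls among these genes was therefore near that of the whole table. With libraries scaled by their totals in place of TMM, 11 rose and 19 fell. The rises then made up 36.7% of the members' calls, against 50% with TMM. Over all genes they made up 42.5% of the calls, against 49.7% with TMM. The median over all genes with library totals was −0.055 on the log2 scale.

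Most of the changes were small. The log2 fold changes of the tested members ran between −0.71 (COX18) and 1.33 (SDHD) with a median of −0.11, against 0.00 over all genes, and 63.6% of them lay below 0, against 49.8% of all genes. Of the 26 members called, 3 (SDHD, SCO1 and ATP5MC1) changed by more than 2-fold, or 11.5%, against 34.1% of all called genes. The siMic60 and siCTRL libraries did not overlap for 37 of the 77 tested members (48.1%), against 47.9% of all genes tested, and for 25 of the 26 called. The 51 members that were not called lay between −0.40 and 0.47, and for 49 of them the 95% interval of the fold stayed within 0.5 and 2.

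**Figure D1:**
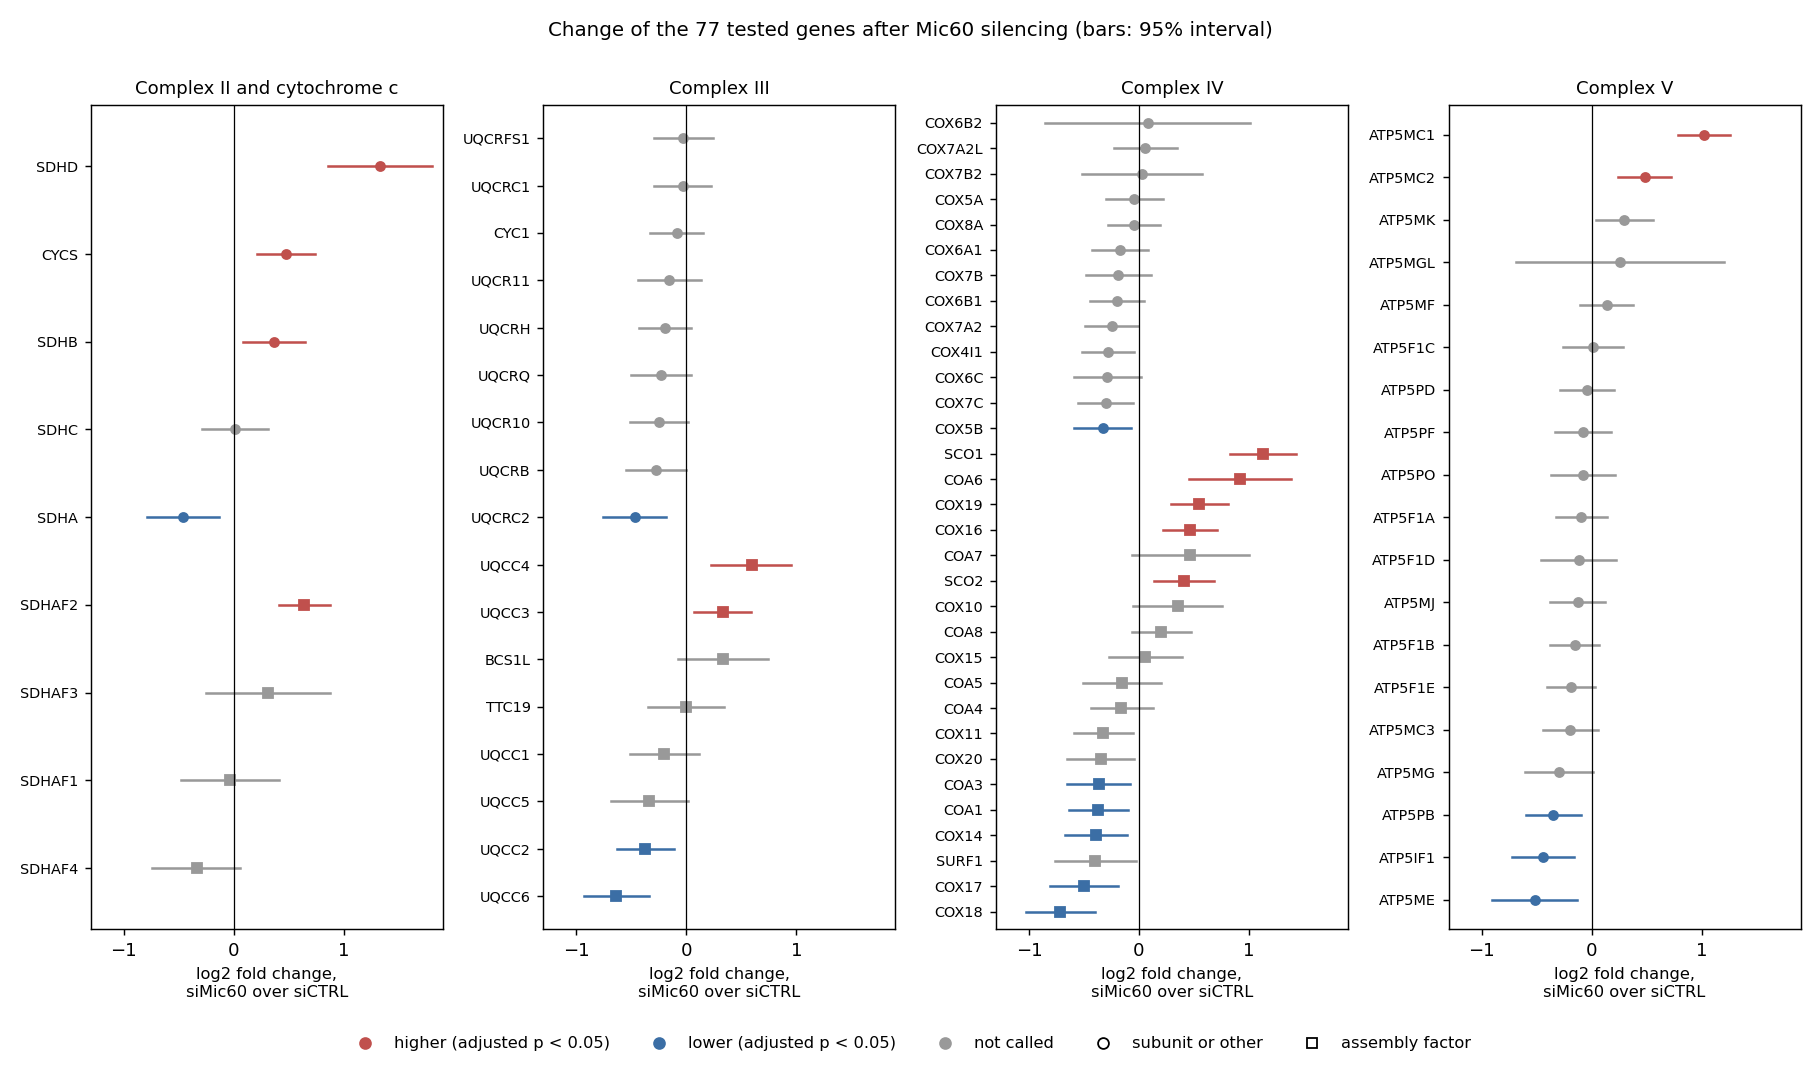
Log2 fold changes (siMic60 over siCTRL, horizontal axis) of the 77 tested genes by complex, with 95% intervals as bars; circles are subunits and other genes, squares are assembly factors, red marks genes called higher and blue genes called lower. SDHD (1.33), SCO1 (1.13) and ATP5MC1 (1.02) lie furthest to the right and COX18 (−0.71) furthest to the left, and the subunits of complexes III and IV gather just left of 0.

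The calls fell unevenly between structural subunits and the factors that assemble them. Of 43 tested subunits of complexes II to V, 4 rose and 5 fell (20.9%). Of the 39 in complexes III to V, 2 rose and 4 fell (15.4%), and 31 had log2 fold changes below 0, with a median of −0.15. Of 31 tested assembly factors of complexes II to IV, 8 rose and 7 fell (48.4%), with a median of −0.03. Complex I, the other large complex of the chain, had 5 of 45 tested genes higher and 11 lower (35.6%), with a median of −0.14. Over all genes tested 35.5% were called, with 17.7% higher and 17.9% lower. The differences between these shares were not tested.

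**Figure D2:**
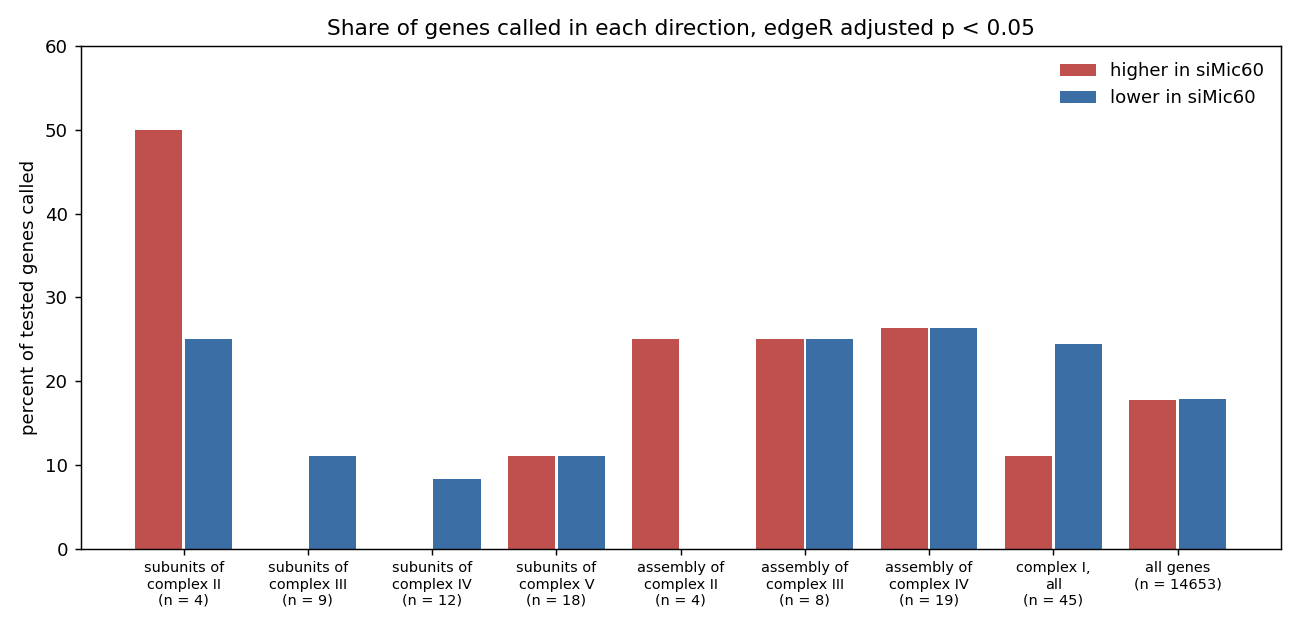
Percent of tested genes called higher (red) or lower (blue) in siMic60 against siCTRL, by complex and by role, with the number tested under each pair of bars. No tested subunit of complex III or IV was called higher, assembly factors of complex IV reached 26.3% in each direction, and all genes reached 17.7% and 17.9%.

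The libraries carried the lower levels unequally. Around each gene's own mean over the 6 libraries, the median log2 deviation of the 39 subunits of complexes III to V was −0.20, 0.03 and −0.03 in the siMic60 libraries, against 0.17, 0.04 and 0.02 in the siCTRL libraries (log2 of CPM plus 0.5). Over all genes tested, the same medians were 0.01, 0.01 and 0.00 in siMic60 and 0.01 in each siCTRL library. Thus replicate 1 of each group stood apart for these subunits, at the low end in siMic60 and at the high end in siCTRL, while the other 4 libraries lay between −0.03 and 0.04. In the main fit 13 members rose and 13 fell, beside 2587 and 2617 over all genes. Without siMic60 replicate 1, 14 members rose and 2 fell, beside 2165 and 2092 over all genes. Without siCTRL replicate 1, 11 members rose and 7 fell, beside 2271 and 2141 over all genes. Without siMic60 replicate 3, which did not stand apart, 10 members rose and 3 fell, beside 2161 and 2195 over all genes. Without siCTRL replicate 2, 10 members rose and 9 fell, beside 2081 and 2067 over all genes. Without siCTRL replicate 3, 10 members rose and 13 fell, beside 2242 and 2172 over all genes. Without siMic60 replicate 2, 11 members rose and 16 fell, beside 2300 and 2333 over all genes. Summed over all 83 genes, the levels were 16664, 19934 and 18318 CPM in siMic60 and 21903, 19691 and 18984 CPM in siCTRL, with overlapping groups. In bulk RNA, less transcript in each cell and fewer cells holding it cannot be told apart.

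**Figure D3:**
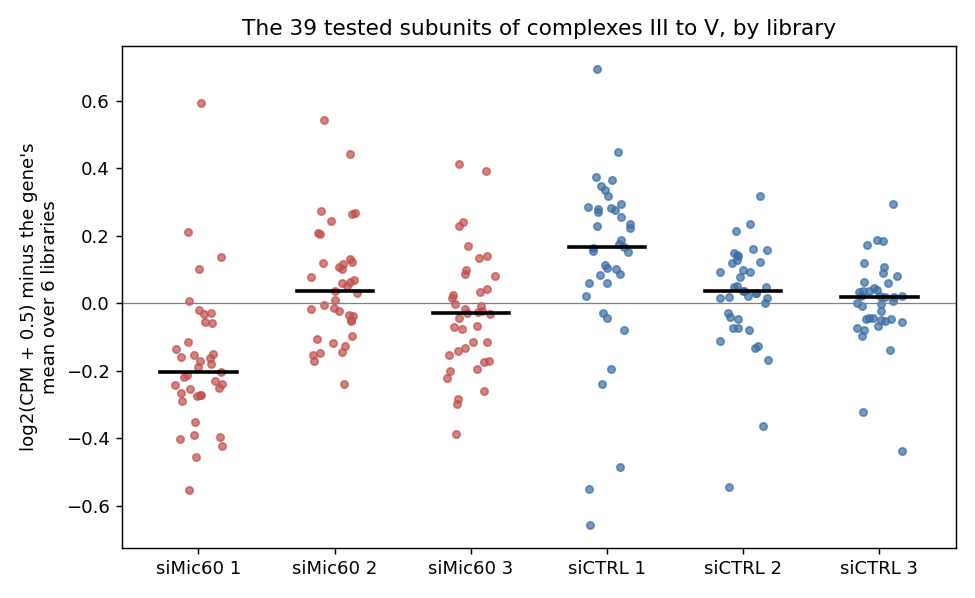
Each point is 1 of the 39 tested subunits of complexes III to V, plotted as its log2(CPM + 0.5) in a library minus the gene's mean over the 6 libraries, and the black line is the median of the library. The medians are −0.20 in siMic60 replicate 1 and 0.17 in siCTRL replicate 1, and between −0.03 and 0.04 in the other 4.

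Complex II genes were called in opposite directions within 1 enzyme. The membrane anchor SDHD and the iron-sulfur subunit SDHB were called higher and the flavoprotein SDHA lower. The second anchor SDHC was not called. SDHD stood at 35.3, 31.0 and 46.5 CPM in the siMic60 libraries, against 9.71, 19.6 and 15.7 CPM in the siCTRL libraries. The groups were well apart, with the lowest siMic60 library above the highest siCTRL library, and the fold was 2.51 (95% interval 1.81 to 3.48, log2 fold change 1.33, standard error 0.22, adjusted p = 0.000294). The call held in all 13 alternative analyses.

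SDHB, which carries electrons over its iron-sulfur clusters, stood at 60.9, 71.5 and 69.8 CPM in siMic60, against 44.3, 57.0 and 55.7 CPM in siCTRL. The groups did not overlap, and the fold was 1.29 (log2 fold change 0.37, standard error 0.13, adjusted p = 0.0441). SDHA, which holds the flavin that oxidizes succinate, stood at 108, 148 and 124 CPM in siMic60, against 216, 154 and 154 CPM in siCTRL. The highest siMic60 library lay just under the lower siCTRL libraries while siCTRL replicate 1 stood above all others, and the fold was 0.726 (log2 fold change −0.46, standard error 0.15, adjusted p = 0.0292). SDHC had 139, 194 and 173 CPM in siMic60 and 145, 187 and 171 CPM in siCTRL, with overlapping groups (fold 1.01, 95% interval 0.817 to 1.24, adjusted p = 0.969).

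The calls of SDHA and SDHB depended on single libraries. That of SDHA was lost without siCTRL replicate 1 (log2 fold change −0.28, adjusted p = 0.12), siMic60 replicate 1 (−0.35, adjusted p = 0.128) or siMic60 replicate 3 (−0.44, adjusted p = 0.0884), and that of SDHB without any siCTRL library or without siMic60 replicate 2 or 3 (adjusted p between 0.0567 and 0.15) or with library totals (adjusted p = 0.0986). SDHA has 4 pseudogene rows in the table, which held 27.6, 29.4 and 23.3 CPM in siMic60 and 21.1, 21.5 and 16.1 CPM in siCTRL. Over all libraries that was 13.3% of the reads of SDHA and its pseudogenes together. These rows stood higher in every siMic60 library than in any siCTRL library, opposite to SDHA. The fall of SDHA is therefore uncertain, as is its level. Whether reads of SDHA were assigned to these rows was not tested.

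Among the factors that mature complex II, SDHAF2, which attaches the flavin to SDHA, rose while SDHA itself was called lower. SDHAF2 stood at 101, 100 and 99.5 CPM in siMic60, against 64.1, 65.9 and 62.7 CPM in siCTRL. Each group was tight and they did not overlap (fold 1.56, 95% interval 1.33 to 1.84, adjusted p = 0.000421). SDHAF1 (−0.03) and SDHAF3 (0.31), which help to place the iron-sulfur clusters of SDHB, and SDHAF4 (−0.34), which binds the flavinated SDHA, were not called.

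Genes of the respiratory chain are known targets of the transcription factors NRF1, GABPA (an ETS factor) and YY1. The promoters of complex II are shown here because its subunits were called in opposite directions. RefSeq (GRCh38.p14) promoter windows of 300 bases, 250 before and 50 after each listed start, were matched for 67 of the 83 genes and searched on both strands. An NRF1 motif (GCGC, any 2 bases, GCGC) was in 26.9% of them, against 9.98% of the 27305 genes with a window and 18.5% of those tested here. The ETS motif CCGGAAG was in 40.3%, against 12.2% and 22.1%, and the YY1 motif AAGATGGCG in 7.46%, against 2.14% and 4.62%. These are matches of letters, which may overlap, and no binding was measured. The SDHD window held an NRF1 motif at chr11:112086753-112086782 and an ETS motif at chr11:112086785-112086814, on the plus strand, and that of SDHB an ETS motif at chr1:17054142-17054171, on the minus strand. The SDHA window held NRF1 motifs at chr5:218144-218173, chr5:218193-218222, chr5:218242-218271 and chr5:218291-218320, on the plus strand. Sites are listed only where the motif ended before the start and 30 bases around it fit in the window, so a window may hold others. The coordinates given are those of the 30 printed bases, motif and flanks together. The sequences run 5′ to 3′ along the gene, with the motif in capitals.
SDHD, NRF1 motif: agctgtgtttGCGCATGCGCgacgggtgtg
SDHD, ETS motif on the opposite strand: ccgcctctcgaCTTCCGGttcacccagcat
SDHB, ETS motif: cacccgggaaaCCGGAAGccgcctcccact
SDHA, NRF1 motif 1: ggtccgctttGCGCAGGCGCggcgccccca
SDHA, NRF1 motif 2: gtggcatggtGCGCAGGCGCgatgtccccc
SDHA, NRF1 motif 3: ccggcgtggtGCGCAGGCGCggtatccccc
SDHA, NRF1 motif 4: ccggtgtggtGCGCAGGCGCagtctgcgca

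Motifs were present among genes that rose and among genes that fell. SDHAF2, which rose, held ETS motifs 102, 78 and 20 bases before its start, which are not printed. The 4 SDHA sites lay 166, 117, 68 and 19 bases before the start and shared the letters GCGCAGGCGC, while SDHD, which rose, held 1 NRF1 motif 110 bases before its start. Across the members with a window, an NRF1 motif was in 1 of 11 called higher, 5 of 13 called lower and 11 of 41 tested but not called. The ETS motif was in 4 of 11 called higher, 4 of 13 called lower and 19 of 41 not called. With so few genes in each class these counts are a description. ATP5MC1, ATP5MC2, CYCS, COX16, COX19, COA6 and UQCC4, which rose, had no match of the NRF1 or ETS letters in these windows.

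The subunits of complex III moved little. All 9 that could be tested had log2 fold changes below 0, between −0.47 and −0.03. Only 1 of them, the core protein UQCRC2, was called (11.1%, against 35.5% of all genes tested). UQCRC2 stood at 75.0, 92.6 and 77.8 CPM in siMic60, against 131, 107 and 102 CPM in siCTRL. The groups did not overlap, and the fold was 0.723 (95% interval 0.593 to 0.881, adjusted p = 0.0133), but the call was lost without siMic60 replicate 1 (adjusted p = 0.058) or 3 (adjusted p = 0.0517). The catalytic subunits CYC1 (cytochrome c1, −0.09) and UQCRFS1 (the Rieske iron-sulfur protein, −0.03) and the partner core protein UQCRC1 (−0.03) were not called, and the intervals of their folds lay between 0.796 and 1.18.

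The smaller subunits of complex III without a catalytic role were measured deeply. UQCRB, at 1069, 1513 and 1274 CPM in siMic60 and 1711, 1531 and 1426 CPM in siCTRL, had the highest level of the complex on a scale that follows transcripts rather than length. Its groups overlapped, and it was not called (log2 fold change −0.28, adjusted p = 0.108), although it was called lower with library totals and without siMic60 replicate 2. UQCRH, the hinge protein, had 300, 336 and 300 CPM in siMic60, all below the 361, 373 and 338 CPM in siCTRL, and was not called either (log2 fold change −0.19, adjusted p = 0.181). Its near-identical copy UQCRHL held 4, 3 and 3 counts in siMic60 and 6, 3 and 2 counts in siCTRL and was too low to test.

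Factors that build complex III went both ways, with 2 of 8 higher and 2 lower. The fallers were UQCC6, a small inner membrane protein needed for the complex, and UQCC2, which acts in the synthesis of cytochrome b. UQCC6 stood at 20.5, 25.1 and 25.5 CPM in siMic60, against 36.4, 39.3 and 35.3 CPM in siCTRL. No library overlapped, the fold was 0.643 (95% interval 0.523 to 0.790, adjusted p = 0.00245), and the call held in all 13 alternatives. UQCC2 stood at 87.2, 109 and 92.4 CPM in siMic60, against 132, 121 and 120 CPM in siCTRL, without overlap (fold 0.772, adjusted p = 0.027). It shares up to 863 exonic bases with ITPR3 on the opposite strand, which rose (73.13, 79.55 and 69.76 CPM in siMic60, against 43.99, 46.78 and 48.94 CPM in siCTRL, log2 fold change 0.67), and the strand setting of the counting is not given in the sources used here.

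The risers were UQCC4 and UQCC3. UQCC4 stood at 22.7, 24.7 and 24.8 CPM in siMic60, against 12.3, 17.9 and 17.8 CPM in siCTRL, without overlap (fold 1.51, 95% interval 1.17 to 1.94, adjusted p = 0.0142). UQCC3, which stabilizes early cytochrome b intermediates together with UQCC1 and UQCC2, stood at 77.6, 85.4 and 85.1 CPM in siMic60, against 60.5, 70.8 and 66.3 CPM in siCTRL (fold 1.26, adjusted p = 0.0419). So UQCC2 and UQCC3, which act in the same step, moved in opposite directions. UQCC1 (−0.20), UQCC5 (−0.34, called lower without siMic60 replicate 2), BCS1L (0.33), which inserts the Rieske protein, and TTC19 (0.00), which clears its fragments, were not called. Leaving out any siCTRL library or siMic60 replicate 2 or 3 ended the call of UQCC3 (adjusted p between 0.064 and 0.115), as did library totals (adjusted p = 0.0971), no minimum count (adjusted p = 0.0574) and the replicate block (adjusted p = 0.0617), and leaving out siCTRL replicate 1 or 2 or siMic60 replicate 1 or 3 ended that of UQCC2 (adjusted p between 0.0555 and 0.109).

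Cytochrome c, which carries electrons between complexes III and IV and triggers apoptosis when it leaves the mitochondrion, is encoded by CYCS. CYCS stood at 263, 289 and 283 CPM in siMic60, against 167, 218 and 216 CPM in siCTRL. The groups did not overlap, and the fold was 1.39 (95% interval 1.16 to 1.67, log2 fold change 0.48, standard error 0.12, adjusted p = 0.00781). HCCS, which attaches heme to cytochromes c and c1 and is not one of the 83 genes, also rose, with 124, 120 and 118 CPM in siMic60, against 62.0, 68.7 and 72.1 CPM in siCTRL (fold 1.79, adjusted p = 6.17e-05). CYC1, the other substrate of HCCS, was not called.

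**Figure D4:**
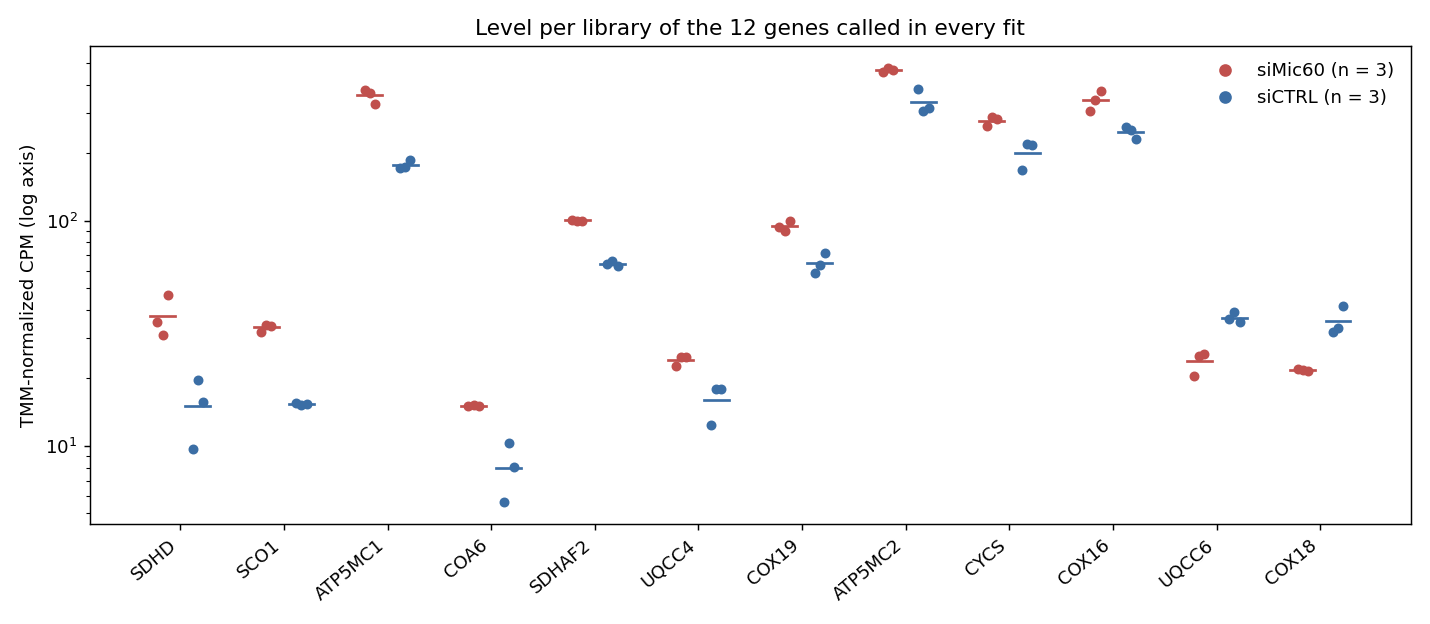
TMM-normalized CPM in each library (points, log axis) and group mean (lines) of the 12 genes called in the main and in all 13 alternative analyses, with siMic60 left of siCTRL for each gene. The first 10 genes, such as SDHD and ATP5MC1, are higher in siMic60 and UQCC6 and COX18 are lower, and no siMic60 point of any of the 12 overlaps the siCTRL points.

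Among the nuclear subunits of complex IV, 1 of 12 tested fell, COX5B, and none rose (8.33% called, against 35.5% of all genes tested). The log2 fold changes ran between −0.33 and 0.08, with 10 of the 12 below 0. COX5B, a zinc-binding subunit on the matrix side, stood at 335, 320 and 358 CPM in siMic60, against 489, 378 and 407 CPM in siCTRL. The gap between the groups was narrow, and the fold was 0.795 (95% interval 0.666 to 0.949, adjusted p = 0.0428). The call was lost without any single library other than siCTRL replicate 2 (adjusted p between 0.0591 and 0.135), and with replicates entered as a block (adjusted p = 0.0637).

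Several subunits of complex IV exist as a widely expressed gene and a tissue-restricted copy, and the widely expressed gene held nearly all of the counts in both groups. COX4I2, COX6A2 and COX7A1 had no count in any of the 6 libraries, while COX4I1 stood at 408, 449 and 460 CPM in siMic60 and 589, 500 and 511 CPM in siCTRL. Its groups did not overlap, and it was not called (log2 fold change −0.28, adjusted p = 0.0625), although scaling by library totals (adjusted p = 0.0236), DESeq2 (adjusted p = 0.048) and a minimum of 50 counts (adjusted p = 0.0436) each called it lower. COX7A2 likewise had 243, 241 and 263 CPM in siMic60, all below the 324, 289 and 275 CPM in siCTRL (log2 fold change −0.25, adjusted p = 0.0976), and was called lower with library totals (adjusted p = 0.0413).

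The other isoform pairs did not change places. COX6A1 (log2 fold change −0.17), COX6B1 (−0.20), COX7B (−0.19) and COX8A (−0.04) were not called, and neither were the testis-enriched copies COX6B2 (0.08) and COX7B2 (0.03). COX6B2 made up 0.561% ± 0.244 of the COX6B family counts in siMic60 and 0.479% ± 0.120 in siCTRL, and COX7B2 made up 1.78% ± 0.0763 of the COX7B counts in siMic60 and 1.58% ± 0.591 in siCTRL (SD, n = 3 each). COX8C, another testis copy, had 0, 3 and 1 counts in siMic60 and 2, 2 and 2 counts in siCTRL and was too low to test. COX7A2L, which joins complexes III and IV into supercomplexes, had 106, 88.7 and 114 CPM in siMic60 and 85.7, 101 and 110 CPM in siCTRL, with overlapping groups (log2 fold change 0.06, adjusted p = 0.777).

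By contrast, 10 of the 19 assembly factors of complex IV were called, 5 in each direction. That was 52.6%, against 35.5% of all genes tested. SCO1, which hands copper to the CuA site of the subunit MT-CO2, changed most. SCO1 stood at 32.0, 34.5 and 34.1 CPM in siMic60, against 15.5, 15.1 and 15.4 CPM in siCTRL. Both groups were tight and far apart, and the fold was 2.19 (95% interval 1.78 to 2.69, log2 fold change 1.13, standard error 0.14, adjusted p = 2.12e-05). COX18, which moves the tail of MT-CO2 across the inner membrane before copper is added, went the other way, with 21.9, 21.8 and 21.4 CPM in siMic60, against 32.0, 33.3 and 41.7 CPM in siCTRL. Its groups did not overlap either (fold 0.609, 95% interval 0.491 to 0.756, adjusted p = 0.00149). Both calls held in all 13 alternatives.

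Sites of SCO1, COX18 and COX17 are printed because SCO1 and COX18 act on MT-CO2 and COX17 supplies copper to SCO1. SCO1 rose, while COX18 and COX17 fell. Their windows differed in the sites listed. SCO1 had an ETS motif 43 bases before its start (chr17:10697558-10697587, minus strand) and no NRF1 motif. COX18 had NRF1 motifs 47 and 18 bases before the upstream of its listed starts (chr4:73069744-73069773 and chr4:73069715-73069744, minus strand), and COX17 had NRF1 motifs 116 and 62 bases before its own upstream start (chr3:119677503-119677532 and chr3:119677449-119677478, minus strand), beside an ETS motif that is not printed. The coordinates again span the 30 printed bases, with the motif in capitals.
SCO1, ETS motif on the opposite strand: actccttccgaCTTCCGGaggaagcggaac
COX18, distal NRF1 motif: gcaggcaggcGCGCATGCGCtttatgcccg
COX18, proximal NRF1 motif: gctgttgctgGCGCGTGCGCgtatcagcct
COX17, distal NRF1 motif: gggcctccttGCGCATGCGCtgaagggggc
COX17, proximal NRF1 motif: tgcctcttctGCGCACGCGCtccttttaaa

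Grouped by the step they serve, a grouping made after the values were seen, most of the called copper factors rose and the called factors of MT-CO1 maturation fell. Of 7 genes that deliver copper or act with those that do, 5 rose (SCO1, SCO2, COX19, COA6 and COX16), COX17 fell and COX11 was not called. COX20, a chaperone of MT-CO2 counted with COX18 in another step, had a log2 fold change of −0.35 and was not called. The assembly factors COA4 (−0.16), COA5 (−0.15), COA7 (0.47) and COA8 (0.21) were placed in no step, and none of them was called. Over all genes tested 17.7% rose and 17.9% fell, but groups drawn from these values cannot test a difference from those shares. COX19, a soluble partner of COX11, stood at 93.8, 89.7 and 99.4 CPM in siMic60, against 58.8, 63.2 and 72.0 CPM in siCTRL, without overlap (fold 1.46, adjusted p = 0.00276). COA6, which helps to keep SCO1 and SCO2 reduced, stood at 15, 15.1 and 15 CPM in siMic60, against 5.63, 10.3 and 8.01 CPM in siCTRL, without overlap (fold 1.89, 95% interval 1.37 to 2.60, adjusted p = 0.00425).

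COX16 and SCO2 also rose, and both overlap neighbours that rose. COX16, which joins the copper factors on MT-CO2, stood at 306, 342 and 378 CPM in siMic60, against 260, 252 and 230 CPM in siCTRL (fold 1.38, adjusted p = 0.00572). The read-through gene SYNJ2BP-COX16, which shares 386 exonic bases with it on the same strand, stood at 83.25, 58.74 and 87.86 CPM in siMic60, against 32.84, 46.28 and 45.0 CPM in siCTRL (log2 fold change 0.89, adjusted p = 0.000862). SCO2, the second copper chaperone of MT-CO2, stood at 85.4, 75.3 and 91.2 CPM in siMic60, against 70.0, 62.0 and 57.8 CPM in siCTRL (fold 1.33, adjusted p = 0.0203). Its RefSeq span shares 691 bases with TYMP, which stood at 55.8, 45.5 and 45.1 CPM in siMic60, against 14.1, 13.8 and 15 CPM in siCTRL (log2 fold change 1.77), and the SCO2 call was lost without siCTRL replicate 2 or 3 or siMic60 replicate 3 (adjusted p between 0.0766 and 0.102). How reads were split between these neighbours was not tested.

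COX17, which supplies copper to SCO1, SCO2 and COX11, stood at 191, 290 and 207 CPM in siMic60, against 322, 346 and 306 CPM in siCTRL. It thus fell while both SCO genes rose, with no overlap between the groups (fold 0.706, 95% interval 0.570 to 0.875, adjusted p = 0.0139). The call was lost without siCTRL replicate 2 (adjusted p = 0.0526) or siMic60 replicate 1 (adjusted p = 0.076) or 3 (adjusted p = 0.0688). COX11, which brings copper to the CuB site of MT-CO1, had 36.2, 41.0 and 41.4 CPM in siMic60, all below the 45.1, 51.7 and 51.9 CPM in siCTRL, and was not called (log2 fold change −0.32, adjusted p = 0.0604), although it was called lower with library totals, with a minimum of 50 counts and without siCTRL replicate 1.

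Of the 4 factors that mature newly made MT-CO1, the first subunit of complex IV to be assembled, 3 fell and all 4 had log2 fold changes between −0.40 and −0.37. COX14 stood at 117, 141 and 116 CPM in siMic60, against 191, 153 and 147 CPM in siCTRL (fold 0.762, adjusted p = 0.0322). COA3 stood at 40.2, 38.5 and 38.5 CPM in siMic60, against 58.0, 50 and 43.1 CPM in siCTRL (fold 0.775, adjusted p = 0.0461). COA1 stood at 36.5, 44.5 and 39.4 CPM in siMic60, against 51.3, 51.7 and 53.0 CPM in siCTRL (fold 0.773, adjusted p = 0.0318). For none of the 3 did the groups overlap.

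SURF1, which acts at the heme of MT-CO1, had 16.7, 17 and 18.7 CPM in siMic60 and 27.6, 18.3 and 23.2 CPM in siCTRL, with overlapping groups, and was not called (adjusted p = 0.0883). COX10 (0.35) and COX15 (0.06), the enzymes of heme A synthesis, were not called, and neither was COX20 (−0.35), the chaperone of MT-CO2 that works with COX18. COX20 was called lower with library totals, with no minimum count, with a minimum of 50 counts and without siCTRL replicate 3 or siMic60 replicate 2, and SURF1 without siCTRL replicate 2. The MT-CO1 calls were not firm. That of COA3 was lost by DESeq2 (adjusted p = 0.0577), by limma-trend (adjusted p = 0.0555), with no minimum count (adjusted p = 0.064), with the replicate block (adjusted p = 0.0657) and without any single library other than siCTRL replicate 3 (adjusted p between 0.0867 and 0.15). That of COX14 was lost without siCTRL replicate 1 or siMic60 replicate 1 or 3 (adjusted p between 0.108 and 0.112), and that of COA1 without siCTRL replicate 2 or 3 or siMic60 replicate 1 or 3 (adjusted p between 0.0729 and 0.124) or with no minimum count (adjusted p = 0.0594).

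In the ATP synthase, 2 of the 3 genes for subunit c rose while most other subunits did not change detectably. The 3 genes ATP5MC1, ATP5MC2 and ATP5MC3 encode the same mature protein behind different import sequences. ATP5MC1 stood at 381, 368 and 331 CPM in siMic60, against 172, 173 and 186 CPM in siCTRL. The groups were far apart (fold 2.03, 95% interval 1.72 to 2.4, log2 fold change 1.02, standard error 0.11, adjusted p = 6.18e-06).

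ATP5MC2 stood at 458, 478 and 467 CPM in siMic60, against 383, 307 and 316 CPM in siCTRL, without overlap (fold 1.4, 95% interval 1.18 to 1.65, adjusted p = 0.00443). ATP5MC3 had 462, 606 and 522 CPM in siMic60 and 644, 602 and 573 CPM in siCTRL, with overlapping groups, and was not called (log2 fold change −0.19, adjusted p = 0.223). The ATP5MC1 and ATP5MC2 calls held in all 13 alternatives. The pseudogene rows of ATP5MC1 held 0.233% of the reads of that gene and its pseudogenes.

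As a share of the 3 genes, ATP5MC1 made up 29.3%, 25.3% and 25.1% of subunit c transcripts in siMic60, against 14.4%, 16.0% and 17.3% in siCTRL. ATP5MC3 made up 35.5%, 41.7% and 39.6% in siMic60, against 53.7%, 55.7% and 53.3% in siCTRL. The order was ATP5MC3, ATP5MC2 and ATP5MC1 in every library of both groups, but the share of ATP5MC3 stayed under 50% in each siMic60 library and was above 50% in each siCTRL library. The sum of the 3 genes was 1300, 1451 and 1320 CPM in siMic60 and 1198, 1082 and 1075 CPM in siCTRL, without overlap.

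**Figure D5:**
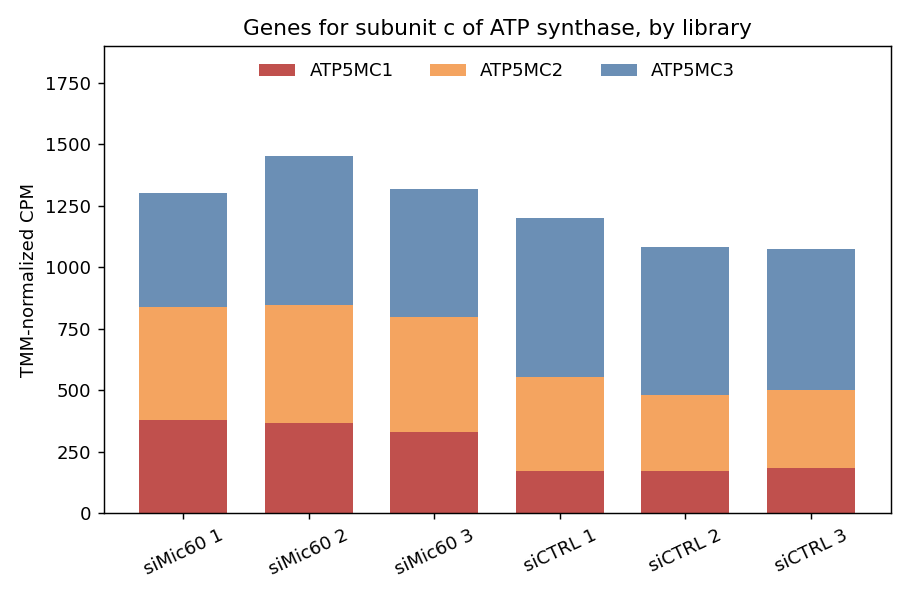
Stacked TMM-normalized CPM of the 3 genes for subunit c in each library, with the siMic60 libraries on the left. ATP5MC1 (red) is 331 to 381 CPM in siMic60 and 172 to 186 CPM in siCTRL, ATP5MC3 (blue) is the largest block in all 6 libraries, and the full bars reach 1300 to 1451 CPM in siMic60 and 1075 to 1198 CPM in siCTRL.

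Outside the c ring, ATP5PB, the b subunit of the peripheral stalk that holds the catalytic head in place, fell. ATP5PB stood at 169, 198 and 168 CPM in siMic60, against 236, 237 and 210 CPM in siCTRL, without overlap (fold 0.785, 95% interval 0.660 to 0.933, adjusted p = 0.0299). The other stalk genes ATP5PD (−0.04), ATP5PF (−0.08) and ATP5PO (−0.08) were not called. ATP5ME, the e subunit found where 2 synthases meet, stood at 201, 282 and 206 CPM in siMic60 and 437, 299 and 252 CPM in siCTRL. It was the 1 called member with overlapping groups, since siMic60 replicate 2 lay above siCTRL replicate 3 (fold 0.698, 95% interval 0.534 to 0.914, adjusted p = 0.0375).

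None of the 5 subunits of the catalytic head and central stalk (ATP5F1A to ATP5F1E) was called, and the intervals of their folds lay between 0.728 and 1.22. ATP5F1B, the catalytic beta subunit, had 400, 451 and 448 CPM in siMic60, all below the 476, 472 and 496 CPM in siCTRL (log2 fold change −0.15, adjusted p = 0.287). ATP5IF1, which stops the synthase from running in reverse, fell and stood at 155, 192 and 175 CPM in siMic60, against 279, 218 and 214 CPM in siCTRL (fold 0.736, adjusted p = 0.017). Its groups did not overlap. Without replicate 1 of siCTRL or of siMic60 the ATP5IF1 call was lost (adjusted p = 0.0548 and 0.0821), as was that of ATP5ME without either of these or siMic60 replicate 3 (adjusted p between 0.139 and 0.183) and that of ATP5PB without siCTRL replicate 2 or siMic60 replicate 1 or 3 (adjusted p between 0.101 and 0.106).

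Summed over its genes, complex II stood at 532 ± 49.8 CPM in siMic60 and 505 ± 13.7 CPM in siCTRL. The sums were 4032 ± 404 CPM in siMic60 and 4635 ± 415 CPM in siCTRL for complex III, and 6869 ± 540 CPM in siMic60 and 7806 ± 648 CPM in siCTRL for complex IV. For complex V they were 6594 ± 657 CPM in siMic60 and 7046 ± 483 CPM in siCTRL (SD, n = 3 each). The groups overlapped for each complex, and the ratios of the means were 1.05, 0.870, 0.880 and 0.936 for complexes II, III, IV and V.

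Other nuclear genes that serve these complexes but carry other symbols were listed as companions, and 29 of 30 could be tested. Of these 4 rose and 5 fell (31.0%, against 35.5% of all genes tested), with a median of −0.02. Beside HCCS, the 2 with the smallest adjusted p were FMC1, which acts in assembly of the catalytic head of complex V, and PNKD. FMC1 stood at 27.0, 25.3 and 27.7 CPM in siMic60, against 50.7, 50.9 and 50.4 CPM in siCTRL, far apart (fold 0.526, adjusted p = 4.49e-05). PNKD stood at 49.7, 48.5 and 47.7 CPM in siMic60, against 97.7, 69.0 and 69.3 CPM in siCTRL (fold 0.618, adjusted p = 0.00172).

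The remaining companion calls were named after their values were seen. That they touch the same steps as the 83 genes follows from how the companions were chosen. SMIM20 (−0.74), a partner of newly made MT-CO1, fell, whereas TIMM21 (0.51), which links protein import to the same intermediates, rose. CMC2 (0.42), a complex IV assembly factor, and TMEM70 (0.56), which aids assembly of the c ring, rose, and ATPAF1 (−0.41), a chaperone of the catalytic head, and OCIAD2 (−0.36) fell. Of these calls, 4 were not firm. That of TIMM21 was lost without siCTRL replicate 1 or 2 or siMic60 replicate 1 or 3 (adjusted p between 0.0527 and 0.0677), that of CMC2 without siCTRL replicate 1 or 2 or siMic60 replicate 3 (adjusted p between 0.0524 and 0.0643), that of ATPAF1 without siCTRL replicate 1 or siMic60 replicate 1 or 2 (adjusted p between 0.137 and 0.155) or with the replicate block (adjusted p = 0.059), and that of OCIAD2 without siCTRL replicate 2 or 3 or siMic60 replicate 1 or 3 (adjusted p between 0.0651 and 0.107). The 6 genes of complexes III to V in mitochondrial DNA (MT-CYB, MT-CO1, MT-CO2, MT-CO3, MT-ATP6 and MT-ATP8) were not analysed here.

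Of the 83 genes, 47 share exonic bases with another gene of the GENCODE 29 annotation, 22 on the same and 33 on the opposite strand, and their counts are uncertain where reads could be split. SDHD shares 26 bases at its start with TIMM8B on the opposite strand, a gene that fell, with 121.43, 147.47 and 107.92 CPM in siMic60, against 291.73, 235.02 and 228.43 CPM in siCTRL (log2 fold change −1.0, adjusted p = 6.52e-05). SDHD and TIMM8B thus moved in opposite directions from adjoining starts.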

How the data were processed

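RNA from siMic60 (n = 3) and siCTRL (n = 3) PC3 cells was sequenced from QuantSeq 3′ mRNA libraries, which count transcripts near the 3′ end. The authors deposited whole-number counts per Ensembl gene without normalizing them, and each library has its own column. The submitters' notes list the build hg19 (GRCh37) and, among tools, DESeq2 and RSEM 1.2.3. Since RSEM estimates counts, they may have been rounded. For the aligner, annotation and strand, nothing was given in the sources used here.

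Identifiers were matched to symbols with a table of current names and GENCODE 29, and all 83 members matched. The annotation at hand is of another build, so no gene coordinates are given. Promoter sequences and their coordinates are those of RefSeq GRCh38.p14.

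Tests used edgeR 4.0.16 in R 4.3.3 (TMM, quasi-likelihood test, Benjamini-Hochberg adjustment over all genes at 0.05) on genes with 10 or more counts in at least 3 libraries. The edgeR step was tested on simulated data. Fold intervals are at 95%. Library totals limit the precision of genes of a few CPM. The 13 alternatives were DESeq2 1.42.0, limma-trend (limma 3.58.1, prior count 2), size factors of DESeq2, library totals, no minimum, at least 50 counts, replicates as a block, and 6 fits that each omit 1 library.

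Named by rule were IMMT, all complex II subunits, up to 3 called genes per role with the smallest adjusted p, the isoform families, CYCS, untested members and 3 companions. Others were named after their values were seen. The members and lists were chosen with earlier results of these data known. Some marker genes are not reported here.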

Additional observations from a re-analysis of the deposited data

How the results depend on the processing

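Of the members called higher, 10 of 13 were called in the main and all 13 alternative analyses (SDHD, SDHAF2, UQCC4, CYCS, SCO1, COX19, COA6, COX16, ATP5MC1 and ATP5MC2), and of those called lower 2 of 13 (UQCC6 and COX18). No called member changed sign. Leaving out each library in turn gave 10 to 14 members higher and 2 to 16 lower. Over all genes the same fits gave 2081 to 2300 higher and 2067 to 2333 lower. Among companions, 2 to 5 were higher and 3 to 5 lower. Called genes were 2 to 3 in complex II, 2 to 6 in III, 5 to 11 in IV and 3 to 6 in V. Genes near 0 turned over. SDHC had −0.05 with library totals, −0.01 with a minimum of 50 counts and −0.09 to 0.14 with libraries left out, and COX6B2 had −0.02 by limma-trend and −0.22 to 0.35 with libraries left out. COX7B2 had −0.03 with library totals and −0.18 to 0.19 with libraries left out, COX8A had −0.11 to 0.03 with libraries left out, and COX7A2L had −0.000277 with library totals and −0.04 to 0.16 with libraries left out. The cause was not tested. A minimum of 50 counts gave 13 members higher and 17 lower (43.3% higher, against 49.5% of the calls over all genes). The replicate block gave 12 members higher and 11 lower, losing COA3, COX5B and UQCC3, beside 2384 and 2382 over all genes. Samples with the same number did not deviate together (correlations of −0.102, −0.0311 and 0.0293, against −0.111 to 0.122 for samples with different numbers). These values show no pairing by number, but they cannot show how the libraries were made. Depth limited COA7, COX6B2, COX7B2 and ATP5MGL, each under 10 CPM in every library.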

Other observations

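The 134 pseudogene rows of these genes, which the report leaves out, held 0.549%, 0.354% and 0.430% of the summed CPM of members and pseudogenes in the siMic60 libraries, against 0.251%, 0.264% and 0.284% in the siCTRL libraries, with no overlap. COX6A1 pseudogenes held 44.3, 28 and 38.9 CPM in siMic60 and 23.1, 20.3 and 27.1 CPM in siCTRL, and ATP5F1E pseudogenes 19.2, 12.4 and 14.9 CPM in siMic60 and 5.63, 9.13 and 10.1 CPM in siCTRL. COX6A1 itself had 580, 674 and 707 CPM in siMic60 and 838, 700 and 670 CPM in siCTRL, and ATP5F1E had 934, 1008 and 998 CPM in siMic60 and 1173, 1105 and 1074 CPM in siCTRL. Whether reads of the parent genes were assigned to these rows was not tested.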
